A study of Mus musculus with 15 samples.

Results

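Cck and 7 other genes (Npw, Amn, Ccdc85b, Atxn7l3b, Arhgdig, Chchd10 and Fbxo2) were picked because their levels in excitatory neurons of the mouse prefrontal cortex (PFC) were higher in cocaine than in saline libraries at 15 days of withdrawal. They are 8 of the 26145 genes listed for single-cell RNA sequencing of this tissue. The contrast that chose them is therefore given below as a description without a test, and tests are kept to contrasts between other libraries. The libraries of 15 days do enter the spread of the adult fit, so its values are also given without them.

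The data comprise 15 libraries of male C57BL/6N mice, in which droplets capture single cells and unique molecular identifiers (UMIs) count mRNA molecules from their 3' ends. Adult mice of 8 to 10 weeks (P60 in the study) took intravenous saline or cocaine by self-administration, and each P60 library pools the tissue of 2 mice. At the maintenance phase saline is represented by libraries 2 and 3 and cocaine by libraries 1 and 4. At 48 h of withdrawal the saline libraries are 5 and 7 and the cocaine libraries 6 and 8, and at 15 days they are 11 and 12 for saline and 9 and 10 for cocaine. The 3 other libraries, numbered 1 to 3 of P21, come from untreated mice of 3 weeks; the methods name 4 mice for them and how these were divided is not known. A tissue label names the nucleus accumbens, whereas titles and source name the PFC.

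The retained cells of a library held 8375172 to 42892922 UMIs, with a median of 3426 to 11334.5 UMIs per cell, and the 4 libraries at 15 days were each deeper in total than the 8 earlier ones. Retained barcodes shared by a pair of libraries had a median of 6 and a maximum of 27 over 105 pairs. Excitatory neurons numbered 20140 in all and 321 to 2623 per library. Their defining markers Slc17a7, Neurod2 and Neurod6 summed to 838 to 1166 CPM in these libraries, against 0.362 to 6.74 CPM for the inhibitory markers Gad1, Gad2 and Slc32a1. Levels are given as CPM, the UMIs of a gene over all UMIs of the summed cells of a class in a library, in the usual scaling. Library 12 stands apart from library 11, and P21 library 1 from P21 libraries 2 and 3, in the genes described here. The main values in excitatory neurons are therefore given with and without them. In the other classes, neither the age tests nor the ratios at 15 days were repeated without them.

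Neuropeptides such as cholecystokinin and neuropeptide W are made as long precursors, cut by prohormone convertases, packed into dense-core vesicles and released to act on G-protein coupled receptors. Cholecystokinin is among the most abundant peptides of the cortex, where it is made by pyramidal cells and by a class of GABAergic basket cells. The other members act inside the cell and at its surface and belong to no common pathway.

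The members lie on 6 chromosomes of the NCBIM37 (mm9) assembly, which the deposited counts use. Cck (ENSMUSG00000032532), the cholecystokinin precursor, is at chr9:121398943-121404807 on the minus strand, and Npw (ENSMUSG00000071230), the neuropeptide W precursor, at chr17:24794275-24795370 on the minus strand. Amn (ENSMUSG00000021278), the membrane partner of the endocytic receptor cubilin, is at chr12:112509322-112514637 on the plus strand. Ccdc85b (ENSMUSG00000042878), a coiled-coil protein, is at chr19:5453163-5457549 on the minus strand. Atxn7l3b (ENSMUSG00000074748), a relative of a subunit of the SAGA deubiquitinase, is at chr10:112362494-112366082 on the minus strand. Arhgdig (ENSMUSG00000073433), a GDP dissociation inhibitor, is at chr17:26336128-26338314 on the minus strand. Chchd10 (ENSMUSG00000049422), a protein of the mitochondrial intermembrane space, is at chr10:75398318-75400470 on the plus strand. Fbxo2 (ENSMUSG00000041556), an F-box protein that brings glycoproteins to an SCF ubiquitin ligase, is at chr4:147534730-147540533 on the plus strand.

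Most transcripts of the members were short and rich in GC, features that the choice did not use. Their median length was 1160 bases and their median GC content 61.8%, and the medians over the tested genes with a transcript were 3036 bases and 50.3%. Of the 8 members, 7 lay above the median GC content, with Atxn7l3b at 46.9% as the exception, and 6 lay below the median length, with Ccdc85b (4387 bases) and Atxn7l3b (3589 bases) above it. Ccdc85b overlaps Fosl1 and Chchd10 overlaps Mmp11 and Gm867 on the opposite strand. Pdia2 comes within 300 bases of the 3' end of Arhgdig on the same strand, without overlap. Those 4 neighbours were at no more than 2.54 CPM in the excitatory neurons of any library.

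Since the members were high in the same libraries, the 250 bases before the start site are shown for the pair of members whose promoters hold the core TGACG of the cAMP response element, and for Chchd10, whose promoter holds none of the motifs searched. RefSeq promoters (build GRCm38.p6) matched 6 of the 8 members, all but Npw and Arhgdig. Capitals mark this core and the GC box GGGCGG on either strand, and sequences run 5' to 3' along the gene's own strand, at chr9:121495695-121495944 (minus), chr4:148160418-148160667 (plus) and chr10:75932880-75933129 (plus).
Cck: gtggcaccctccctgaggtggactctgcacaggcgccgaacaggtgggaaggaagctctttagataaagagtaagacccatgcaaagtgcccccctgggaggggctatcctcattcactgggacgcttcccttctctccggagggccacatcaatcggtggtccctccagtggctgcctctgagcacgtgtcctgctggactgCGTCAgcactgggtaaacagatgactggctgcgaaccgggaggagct
Fbxo2: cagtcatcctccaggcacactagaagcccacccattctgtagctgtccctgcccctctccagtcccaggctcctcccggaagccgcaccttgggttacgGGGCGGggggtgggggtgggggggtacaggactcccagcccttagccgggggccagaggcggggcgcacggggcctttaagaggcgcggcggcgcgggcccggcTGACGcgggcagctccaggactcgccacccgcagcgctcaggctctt
Chchd10: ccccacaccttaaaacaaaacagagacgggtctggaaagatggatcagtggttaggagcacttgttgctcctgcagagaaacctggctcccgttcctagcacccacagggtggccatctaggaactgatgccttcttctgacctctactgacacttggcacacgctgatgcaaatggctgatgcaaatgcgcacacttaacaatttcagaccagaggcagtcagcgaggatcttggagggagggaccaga
In the full windows of 300 bases, which add 50 bases after the start, the core was found once in Cck and once in Fbxo2, and 20.8% of all 32851 promoters hold it on either strand. The GC box was found in 4 of the 6 matched members (Fbxo2, Amn, Ccdc85b and Atxn7l3b) and in 35.7% of all promoters. Neither the complete element TGACGTCA (1.79% of all promoters), which contains the core, nor TATAAA (13.6%) was found in a member.

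Cck in excitatory neurons separated the libraries at 15 days into 3 levels. Its level was 3734 and 3127 CPM in cocaine libraries 9 and 10, and 458 and 1681 CPM in saline libraries 11 and 12. At maintenance it was 654 and 818 CPM in saline libraries 2 and 3 and 662 and 949 CPM in cocaine libraries 1 and 4. Both cocaine libraries at 15 days were above every other P60 library, and saline library 12 was above all 8 libraries of maintenance and 48 h whereas library 11 was within their range. At 48 h Cck was at 453 and 420.3 CPM in saline libraries 5 and 7 and at 457 and 667 CPM in cocaine libraries 6 and 8. In P21 libraries 1, 2 and 3 it was at 4728, 1648 and 1346 CPM, so that the highest level of all 15 libraries was in untreated young mice.

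**Figure D1:**
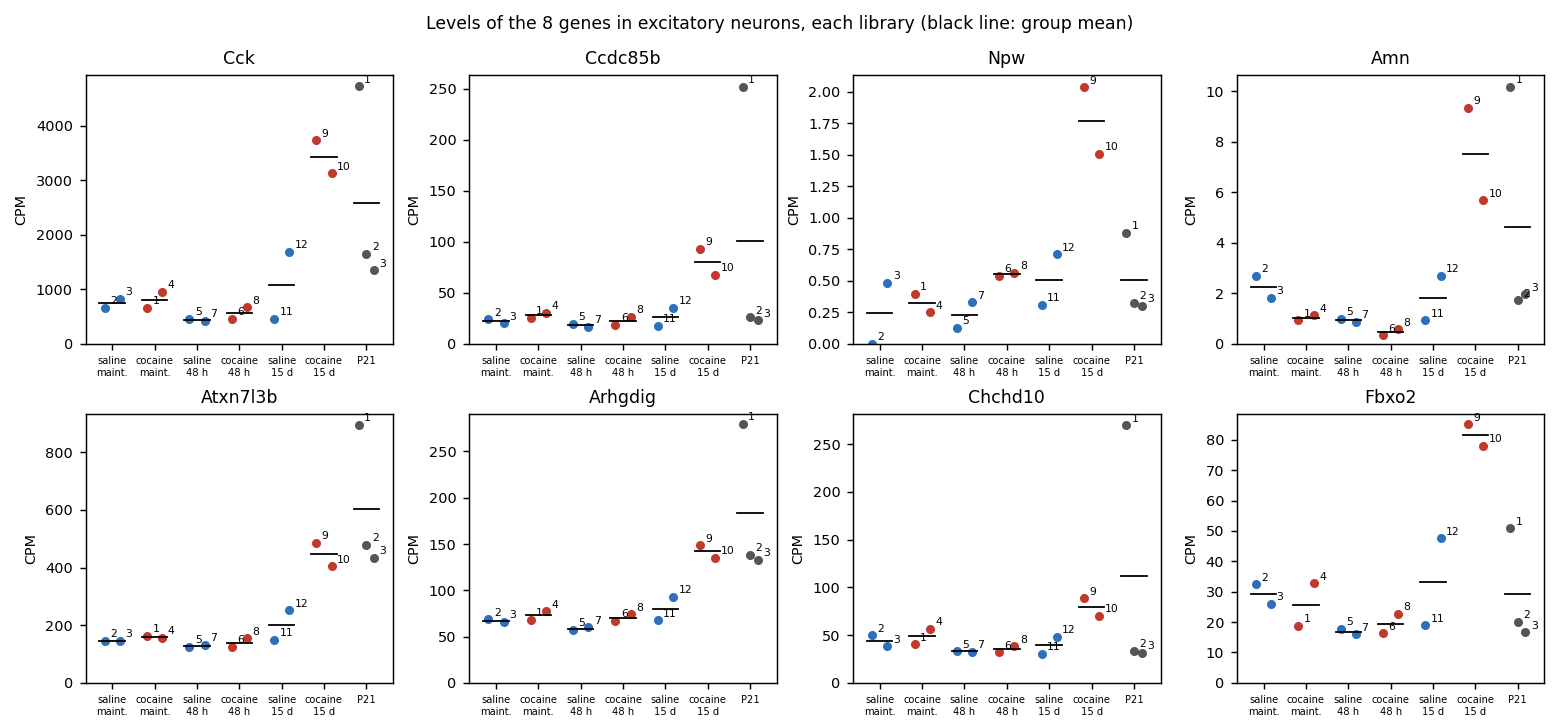
Level of each of the 8 genes in excitatory neurons (vertical axes, CPM, linear from 0) by group; each point is 1 library with its number, and black lines are group means. Cocaine libraries 9 and 10 lie above saline libraries 11 and 12 for each gene, library 12 lies above library 11, and P21 library 1 lies far above P21 libraries 2 and 3.

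Fbxo2 followed the same order at P60. It was at 85.1 and 77.9 CPM in cocaine libraries 9 and 10 and at 18.9 and 47.5 CPM in saline libraries 11 and 12, against 16.0 to 32.8 CPM (median 20.7) in the 8 earlier libraries. In P21 libraries 1, 2 and 3 it was at 50.8, 20.2 and 16.6 CPM. Unlike Cck, its highest level was in the cocaine libraries at 15 days and not at P21.

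Ccdc85b and Chchd10 had their highest level in P21 library 1 alone. Ccdc85b was at 92.7 and 67.7 CPM in libraries 9 and 10, at 17.5 and 35.3 CPM in libraries 11 and 12, and at 16.2 to 30.1 CPM (median 21.9) in the 8 earlier libraries. In P21 libraries 1, 2 and 3 it was at 252, 25.8 and 22.8 CPM, the last pair within the range of the earlier P60 libraries. For Chchd10 the values were 88.6 and 70.5 CPM in libraries 9 and 10, 30.5 and 48.0 CPM in libraries 11 and 12, and 32.1 to 56.9 CPM (median 38.4) in the earlier ones. At P21 it was at 270 CPM in library 1, at 33.8 CPM in library 2 and at 31.7 CPM in library 3. Library 12 was within the earlier range for Chchd10 and above it for Ccdc85b.

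Atxn7l3b and Arhgdig were high in each P21 library. Atxn7l3b was at 486 and 405 CPM in libraries 9 and 10, at 149 and 252 CPM in libraries 11 and 12, at 125 to 163 CPM (median 145) in the 8 earlier libraries, and at 895, 478 and 433 CPM in P21 libraries 1, 2 and 3. The values of Arhgdig were 149 and 135 CPM, 67.5 and 93.0 CPM, 57.5 to 77.5 CPM (median 67.6), and 280, 138 and 133 CPM in the same order. P21 libraries 2 and 3 were thus close to the cocaine libraries at 15 days for both genes.

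Amn and Npw rested on few molecules. Amn gave 312 and 162 UMIs (9.34 and 5.68 CPM) in libraries 9 and 10 and 30 and 53 UMIs (0.923 and 2.68 CPM) in libraries 11 and 12, and its 8 earlier libraries were at 0.323 to 2.69 CPM. Npw gave 68 and 43 UMIs in libraries 9 and 10, 10 and 14 in libraries 11 and 12, and 0 to 8 in each of the earlier libraries. At P21 Amn was at 10.2, 1.71 and 1.95 CPM and Npw gave 22, 4 and 4 UMIs in libraries 1, 2 and 3. Npw in library 2, with 0 UMIs, is below a limit of 0.671 CPM, which covers counting error only.

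The mean cocaine level at 15 days was 4.17 times the mean saline level for Amn, 3.49 times for Npw, 3.21 times for Cck, 3.03 times for Ccdc85b, 2.45 times for Fbxo2, 2.22 times for Atxn7l3b, 2.03 times for Chchd10 and 1.77 times for Arhgdig. All 8 members were past 1.5-fold, as were 1.94% of the 13172 genes tested, and both cocaine libraries lay above both saline libraries for each, as for 12.5% of those genes; the members were chosen by this contrast and nothing is read from that count. Against saline library 11 alone the ratios were higher, from 2.105 for Arhgdig to 8.13 for Amn, with Cck at 7.49.

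The spread between libraries of 1 group was then set beside these ratios, since library pairs of 1 group share their treatment. Library 12 was above library 11 for each of the 8 members, by 1.38 times for Arhgdig, 1.69 times for Atxn7l3b, 2.51 times for Fbxo2 and 3.67 times for Cck. On the log2(CPM + 1) scale 6 of the 8 were past 1.5-fold, against 2.19% of the tested genes. P21 library 1 exceeded the mean of P21 libraries 2 and 3 by 1.96 times for Atxn7l3b to 8.24 times for Chchd10 and 10.4 times for Ccdc85b, and on the log2(CPM + 1) scale 7 of the 8 members were past 1.5-fold, against 7.16% of the tested genes. Both pairs stand without a test, since each compares single libraries. Libraries 11 and 12 also belong to the contrast that chose the members, so nothing is read from their count.

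In the other pairs few members were past 1.5-fold, on the same log2(CPM + 1) scale. The members' median log2 ratio was 0.28 in library 8 over 6, against 0.02 over the tested genes. It was 0.21 (-0.05) in library 4 over 1 and 0.11 (0.01) in P21 library 2 over 3. Lower medians were -0.27 (-0.03) in library 10 over 9, -0.16 (-0.096) in library 3 over 2 and -0.06 (0.01) in library 7 over 5. Libraries 9 and 10 belong to the contrast that chose the members, so nothing is read from their count. None of the members was past 1.5-fold higher in P21 library 2 over 3 (0.433% of the tested genes) or in library 10 over 9 (0.554%), although Amn was past it in the lower direction in the latter. Among the 4 pairs of maintenance and 48 h, only library 4 over library 1 held a member past 1.5-fold in either direction, Fbxo2, which was higher in library 4. In that pair 2.76% of the tested genes were past 1.5-fold higher and 4.89% lower. The shares were 3.04% higher and 8.65% lower in library 3 over 2, 2.9% and 1.95% in library 7 over 5, and 3.34% and 1.69% in library 8 over 6. In plain CPM, Amn (8 against 3 UMIs in library 8 over 6) and Npw (0 to 5 UMIs a library, in 3 of these pairs) were past it too, Npw in the lower direction in library 4 over 1. In the same unit the ratio of library 12 to library 11 for Cck (3.67) was larger than that of the cocaine to the saline mean (3.21). Library 11 and library 12 had similar levels of the excitatory marker Slc17a7 (435 and 436 CPM) and of the neuronal gene Snap25 (4274 and 3842 CPM).

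**Figure D2:**
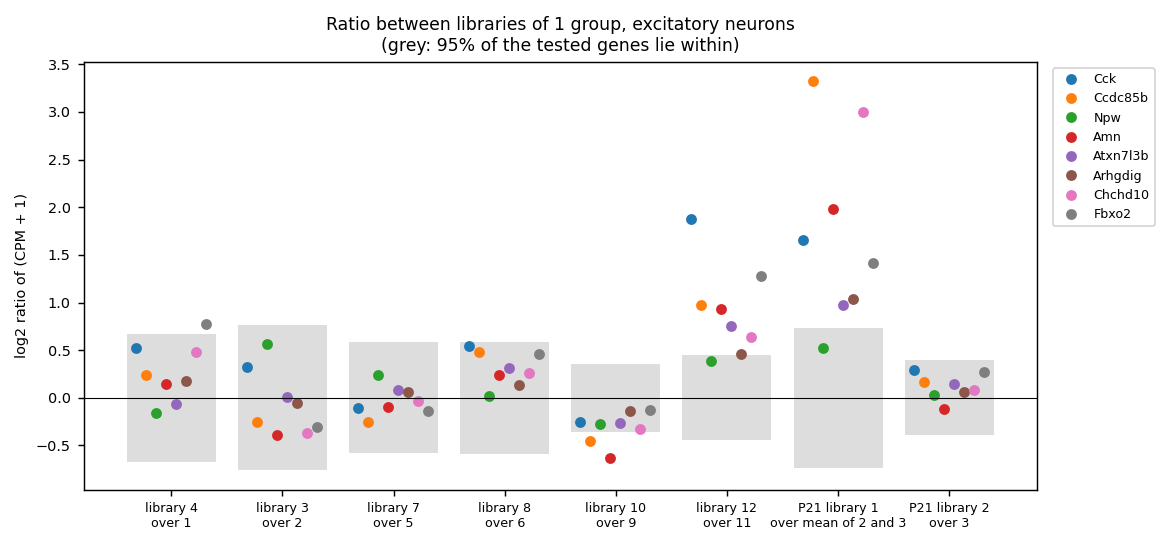
Log2 ratio of (CPM + 1) of the 8 genes (coloured points) between libraries of 1 group in excitatory neurons; the grey band around 0 holds 95% of the tested genes. In library 12 over 11 all points but that of Npw are at or above the edge of the band, with Cck highest, and in P21 library 1 over the mean of 2 and 3 Ccdc85b and Chchd10 are highest.

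Cocaine and saline libraries of maintenance and of 48 h, which the choice did not use, were compared with edgeR over the 13172 tested genes. The fit takes its spread from all 12 adult libraries, those of 15 days included, and Npw passed the filter on low counts through these alone, so that counts are given over the other 7 members. None of the 7 was called at maintenance, none at 48 h and none for the difference of both effects, and neither was any other gene (0.0% in each comparison). At an unadjusted p under 0.05 there were 0 members in each, against 871, 647 and 357 of all genes, and DESeq2 called 2, 4 and 3 genes and 0 members. The members' median log2 change was 0.11 at maintenance and 0.21 at 48 h, where 6 of 7 were positive, and the median of all genes was 0.0058 and -0.00069.

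Without the libraries of 15 days the errors were smaller and still no member was called. Cck changed by 0.11 ± 0.54 (SE) on the log2 scale at maintenance (adjusted p = 0.982, edgeR) and by 0.34 ± 0.54 at 48 h (adjusted p = 0.995) in the fit of 12 libraries, and by 0.11 ± 0.22 and 0.34 ± 0.22 in that of the 8 libraries (adjusted p = 0.982 and 1.00). The fit of 8 libraries called 2, 1 and 4 of 12414 genes in the 3 comparisons. It had 1 member at an unadjusted p under 0.05, Amn at maintenance, with a log2 change of -1.09 ± 0.49 (adjusted p = 0.982). P-values measure the spread between libraries, each of which pools animals.

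Saline libraries of 48 h were likewise compared with those of maintenance. The 7 members had lower levels at 48 h, with a median log2 change of -0.41 (0.0018 over all genes), and none of them was called by edgeR (7 of 13172 genes, 0.0531%). The members at an unadjusted p under 0.05 were 0, and DESeq2 called 18 genes and 0 members. Cck had a log2 change of -0.76 ± 0.54 (SE, adjusted p = 0.985) and Fbxo2 of -0.79 ± 0.48 (adjusted p = 0.985). In the fit of 8 libraries, 4 of the 7 members were at an unadjusted p under 0.05 (437 of 12414 genes) and 0 were called. Cck was at -0.76 ± 0.22 and Fbxo2 at -0.78 ± 0.25 there (adjusted p = 0.999, edgeR). Without the filter on low counts, in the fit of 12 libraries, Cck and Fbxo2 were both called as lower at 48 h, among 73 of 19798 genes called (0.369%).

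Age gave the clearest difference among the libraries not used for the choice. The 4 saline libraries of maintenance and 48 h were compared with the 3 P21 libraries by edgeR. In this fit 7 members passed the filter on low counts and Npw did not. The fit counts the 3 P21 libraries as independent. The methods name 4 mice for them, so that libraries may share mice, and the p-values hold only if they do not. Atxn7l3b, Cck and Arhgdig were lower at P60. These are 3 of 7, and 11.3% of the 12856 tested genes were called in this direction. Atxn7l3b fell by 2.08 ± 0.25 (SE) on the log2 scale (adjusted p = 0.000705), Cck fell by 2.08 ± 0.54 (adjusted p = 0.0314) and Arhgdig fell by 1.495 ± 0.27 (adjusted p = 0.00469). Each of the 4 saline P60 libraries lay below each of the 3 P21 libraries for these 3 of the 7 members, as for 24.7% of the tested genes. The median log2 difference of the 7 members was -1.75, and that of all tested genes -0.02.

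P21 library 1 decided the values of the other members but not these calls. Ccdc85b (-2.33 ± 1.00 on the log2 scale, adjusted p = 0.133), Amn (-1.75 ± 0.83, adjusted p = 0.150), Chchd10 (-1.52 ± 0.88, adjusted p = 0.241) and Fbxo2 (-0.35 ± 0.48, adjusted p = 0.610) were not called. Without P21 library 1, Ccdc85b was at -0.26 and Amn at -0.34, and Chchd10 and Fbxo2 turned to 0.27 and 0.34. Atxn7l3b, Cck and Arhgdig remained called without it, with log2 changes of -1.67, -1.28 and -1.05. The call of Cck was lost in other settings, among them without P21 library 2 (adjusted p = 0.0511), saline library 2 (adjusted p = 0.0618) or saline library 5 (adjusted p = 0.0774). Age and the time of collection cannot be told apart, and neither can untreated mice and mice that took saline.

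The genes with which the members work were followed in a pair of lists chosen with earlier results known. In the list of peptide receptors, ligands, processing enzymes and granins, 16 of 20 genes were tested in excitatory neurons, and none was called at maintenance or 48 h. Against P21, 1 was higher and 3 were lower at P60, a share to be read against 18.9% of all genes called in either direction, and the list's median log2 change was 0.18. Pcsk1, a prohormone convertase, was higher at P60 by 0.93 on the log2 scale (adjusted p = 0.00312). Tpst2, which sulfates tyrosines of peptides such as cholecystokinin, was lower at P60 (log2 change -1.49, adjusted p = 5.62e-05). So were the amidating enzyme Pam (-1.06, adjusted p = 0.0159) and the convertase Pcsk5 (-0.65, adjusted p = 0.00755).

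Of the 16 tested genes of this list, Tpst2 alone was past 1.5-fold at 15 days (1.94% of all tested genes), at 47.6 and 43.4 CPM in cocaine libraries 9 and 10 and 15.5 and 32.8 CPM in saline libraries 11 and 12, with library 12 again above library 11. The ligand gene Npb, which was not tested, was past it too (1.57 times), at no more than 0.150 CPM in these 4 libraries. The cholecystokinin receptor Cckbr was at 32.7 and 34.2 CPM in cocaine libraries 9 and 10 and at 36.7 and 35.3 CPM in saline libraries 11 and 12. The list's median ratio at 15 days was 0.985. In the list of partners and relatives of the other members, such as the cubilin, SAGA and SCF genes, 25 of 28 were tested and 0 were past 1.5-fold at 15 days (median ratio 0.975). Against P21 it held 2 called genes of 25, both higher at P60 (7.55% of all genes), the F-box gene Fbxo17 (log2 change 0.89, adjusted p = 0.00577) and Apool of the mitochondrial contact site (0.66, adjusted p = 0.00495).

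The authors divided the excitatory neurons into 26 clusters, and the level of Cck is described in each. Over the 8 libraries of maintenance and 48 h pooled, Cck was highest in cluster 24 (913 CPM) and 12 (906 CPM). It was lowest in clusters 21 (11.8 CPM), 18 (21.8 CPM), 19 (38.8 CPM) and 20 (48.7 CPM). The order at the top is not beyond the spread between libraries. Means over libraries were 954 ± 396 CPM (SD, n = 7) in cluster 24, 889 ± 260 CPM (n = 8) in cluster 12 and 869 ± 264 CPM (n = 7) in cluster 8. At 15 days both cocaine libraries were above both saline libraries in each of the 22 other clusters, with ratios of 2.88 to 4.27 and a median of 3.16. These clusters share the same 4 libraries and the contrast chose the members, so nothing is read from the counts. In a cluster, 12.8% to 16.7% of the genes with more than 3 saline UMIs separated in this way (14.8% over all pairs of gene and cluster). Over all 26 clusters the same held in 26 for Atxn7l3b and Fbxo2, 25 for Ccdc85b and Arhgdig and 24 for Chchd10. Of the members with few molecules, it held for Amn in 7 of the 9 clusters that gave a ratio and for Npw in 1 of 2.

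In cluster 24, Cck was at 5341 and 4679 CPM in libraries 9 and 10 and at 676 and 2387 CPM in libraries 11 and 12, the same order as in all excitatory neurons. The 4 clusters low in Cck, set apart after their values were seen, had ratios of 3.30 to 8.40, and library 12 was not above library 11 in 3 of them. In cluster 21 it was at 302 and 333 CPM in libraries 9 and 10, at 70.6 CPM in library 11 and at 57.1 CPM in library 12. Cluster 18 had 321, 355, 44.3 and 36.2 CPM in the same order. In cluster 19, library 12 (142 CPM) was above library 11 (57.3 CPM). These clusters rest on 36 to 208 Cck UMIs in both saline libraries together. In libraries 9, 10, 11 and 12 their levels were 260 to 417, 243 to 355, 44.3 to 72.0 and 36.2 to 142 CPM. Endothelial cells, a class that should lack Cck, were at 311, 187, 41.3 and 110 CPM in the same order. Whether the levels in these clusters reflect expression was not tested.

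**Figure D3:**
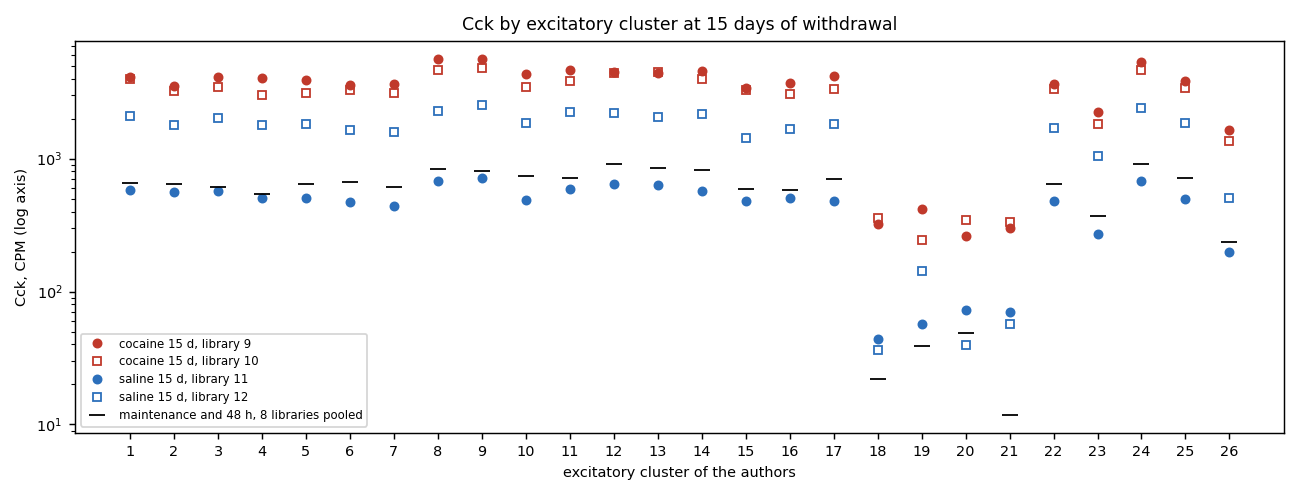
Cck level (vertical log axis, CPM) in each of the 26 excitatory clusters of the authors at 15 days; red marks cocaine libraries 9 and 10, blue marks saline libraries 11 and 12, and black bars show the 8 earlier libraries pooled. The red points are highest in every cluster, library 12 lies between them and library 11 in most, and clusters 18 to 21 are low throughout.

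The share of excitatory neurons with a Cck UMI was compared after thinning each cell to 2000 UMIs. It was 90.5% and 85.8% in cocaine libraries 9 and 10, 52.8% in saline library 11, 81.9% in saline library 12, and 46.0% to 67.8% in the 8 earlier libraries. Unthinned, the shares were 94.6%, 92.6%, 85.6%, 90.8% and 82.5% to 92.5%. In endothelial cells, which serve as the class that should lack Cck, the thinned share was 23.04% and 14.2% in cocaine libraries 9 and 10, 5.57% in library 11, 12.2% in library 12 and 0.413% to 3.21% earlier. The median depth of the earlier libraries was 3966 to 5095 UMIs per endothelial cell and 11810 to 16454 per excitatory neuron. The shares of excitatory neurons were above these in each library.

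Cck in inhibitory neurons was highest at 15 days with cocaine. Its level was 3860 and 4217 CPM in cocaine libraries 9 and 10 and 398 and 2094 CPM in saline libraries 11 and 12, against 262 to 1549 CPM (median 687) in the 8 earlier libraries. At P21 it was at 3069, 1322 and 871 CPM in libraries 1, 2 and 3. Early libraries averaged 794 ± 483 CPM (SD, n = 8) in inhibitory and 635 ± 187 CPM in excitatory neurons, levels that overlapped. The excitatory markers in inhibitory neurons summed to 6.49 to 58.3 CPM in the earlier libraries, 94.3 to 127 CPM in the cocaine and 136 to 161 CPM in the saline libraries of 15 days, and 39.4 to 78.4 CPM at P21, and their part in the Cck values was not tested. Over the pooled earlier libraries Cck was highest in inhibitory clusters 11 (4422 CPM), 12 (2329 CPM) and 10 (2294 CPM), from 15 to 20 cells each, and gave 0 UMIs in the 13 cells of cluster 1.

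In each of the other classes the early mean of Cck was at most 45.9 ± 37.9 CPM, that of microglia. Astrocytes (17.4 ± 27.8 CPM, n = 7), both oligodendrocyte stages, endothelial cells (11.4 ± 5.82 CPM, n = 8) and oligodendrocyte precursors (10.1 ± 10.4 CPM, n = 7) followed, and these neighbours did not differ beyond their spread. The neuronal gene Snap25 was higher in each library of 15 days than in each earlier one in astrocytes, precursors, mature oligodendrocytes, microglia and endothelial cells, but not in newly formed oligodendrocytes. Endothelial Snap25 was at 32.7 to 211 CPM in the 8 earlier libraries, at 359 and 299 CPM in cocaine libraries 9 and 10, and at 399 and 253 CPM in saline libraries 11 and 12. Its order among these 4 libraries was not that of Cck, since library 11 was highest in Snap25 and lowest in Cck.

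Endothelial Cck was at 311 and 187 CPM in libraries 9 and 10, at 41.3 CPM in library 11 and at 110 CPM in library 12. As a percent of the excitatory level in the same library, these were 8.33%, 5.97%, 9.02% and 6.56%, and those of Snap25 were 8.91%, 7.40%, 9.34% and 6.58%. In these 4 libraries Cck in endothelial cells stood in nearly the same proportion to the excitatory level as did Snap25. The 15-day ratio of endothelial Cck, 3.28, was close to the 3.21 of excitatory neurons. Atxn7l3b, by contrast, was at 60.2%, 71.5%, 85.0% and 67.8% of its excitatory level and Ccdc85b at 163% to 241%. In several earlier libraries the percents of Cck and Snap25 differed more in relation to their size, in either direction. They were 3.24% and 1.61% in library 5 and 3.44% and 5.03% in library 8. The part of neuronal transcripts in endothelial Cck was not tested.

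**Figure D4:**
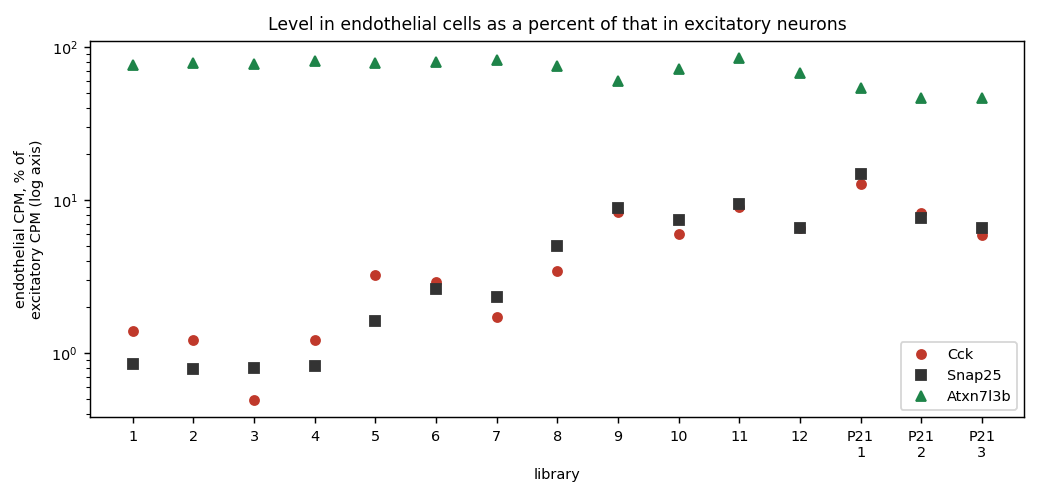
Level in endothelial cells as a percent of that in excitatory neurons (vertical log axis) for Cck, the neuronal gene Snap25 and Atxn7l3b in each library (horizontal axis). Cck and Snap25 nearly coincide from library 9 to P21 library 3, at 5.89% to 14.8%, and Atxn7l3b lies between 46.1% and 85.0%.

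**Figure D5:**
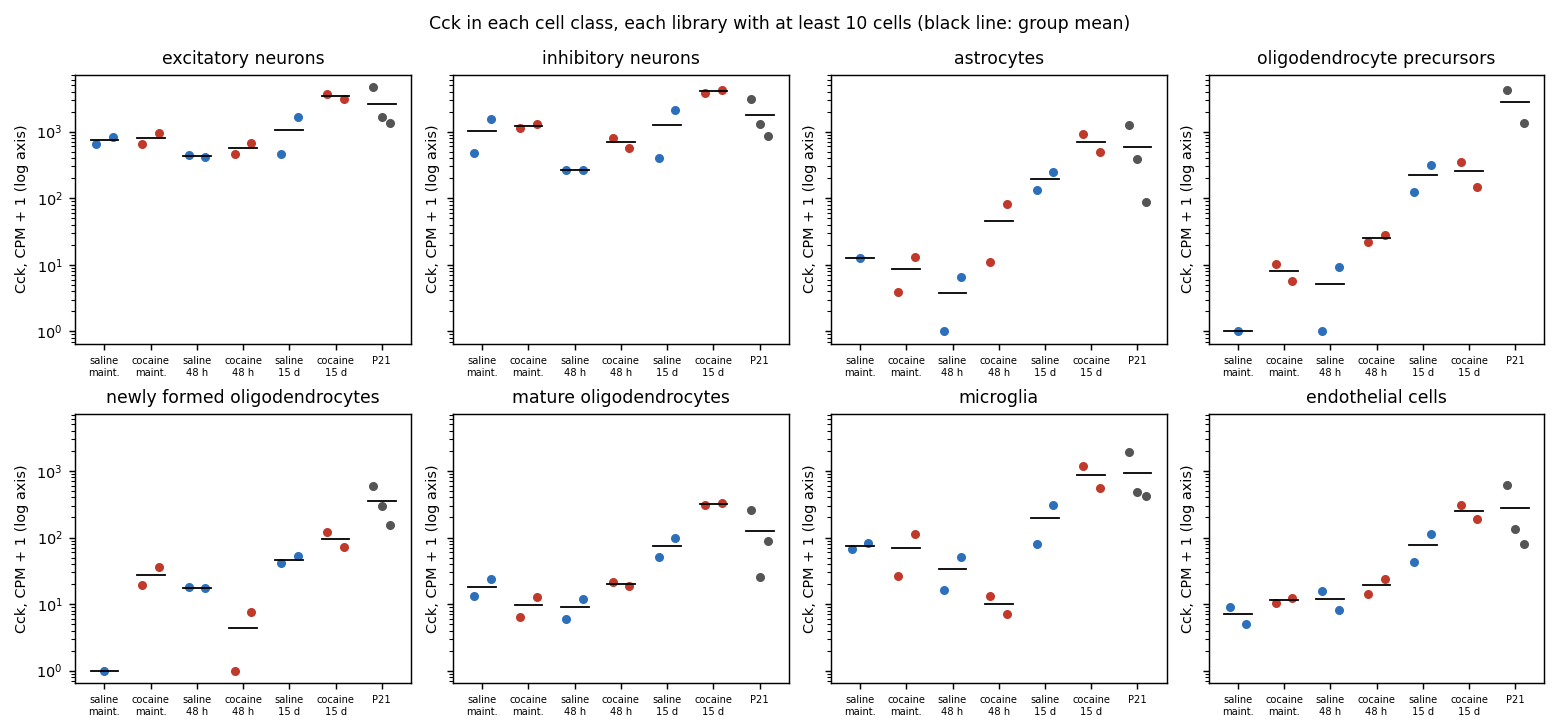
Cck level plus 1 (vertical log axis, CPM) in 8 cell classes by group; each point is 1 library with at least 10 cells of the class and black lines are group means. Both neuronal classes are at least at 262 CPM in every library, and in the other classes the libraries of 15 days and P21 lie above most earlier ones.

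Atxn7l3b was measured in every class, and the 4 libraries of 15 days had the same order in endothelial cells as in excitatory neurons. In endothelial cells it was at 292 and 289 CPM in cocaine libraries 9 and 10, at 127 and 171 CPM in saline libraries 11 and 12, and at 98.4 to 126 CPM in the 8 earlier libraries. At P21 it was at 487, 220.3 and 200 CPM in libraries 1, 2 and 3, so that P21 libraries 2 and 3 lay below cocaine library 10 here and above it in excitatory neurons. Its early mean was highest in newly formed oligodendrocytes (226 ± 65.9 CPM, n = 7), inhibitory neurons (206 ± 30.6 CPM, n = 8) and precursors (179 ± 19.5 CPM, n = 7), which overlapped, and lowest in microglia (34.4 ± 14.4 CPM, n = 8).

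Fbxo2 and Chchd10 were highest in astrocytes. Early astrocytes had 160 ± 36.8 CPM of Fbxo2 (SD, n = 7), mature oligodendrocytes 93.4 ± 25.2 CPM (n = 8) and excitatory neurons 22.8 ± 6.91 CPM (n = 8), and endothelial cells 0.970 ± 0.917 CPM from 8 UMIs in all. At 15 days astrocytes were at 546 and 423 CPM of Fbxo2 in cocaine libraries 9 and 10 and at 112 and 304 CPM in saline libraries 11 and 12. Library 12 was again 2.73 times library 11. Chchd10 was at 48.3 ± 15.5 CPM in early astrocytes and 40.2 ± 8.86 CPM in excitatory neurons, which did not differ beyond their spread.

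Ccdc85b was highest in endothelial cells (40.5 ± 10.6 CPM, n = 8) and lowest in microglia (3.24 ± 4.07 CPM). Arhgdig was neuronal, with early means of 67.3 ± 6.59 CPM (excitatory) and 37.5 ± 10.1 CPM (inhibitory) and at most 5.25 ± 3.08 CPM elsewhere. Amn was detected in inhibitory (2.71 ± 2.63 CPM from 11 UMIs) and excitatory neurons (1.16 ± 0.755 CPM from 75 UMIs), and Npw gave 28 UMIs in excitatory neurons and 1 in all other classes together.

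At 15 days most members were also higher with cocaine outside excitatory neurons, which is again a description. Ratios were taken where saline libraries gave more than 3 UMIs, and shares of all such genes of the class are given beside the counts. The ratio was past 1.5-fold for 7 of 7 members in inhibitory neurons (6.84% of genes), 6 of 6 in astrocytes (10.4%) and in endothelial cells (6.84%), 5 of 6 in precursors (14.4%), mature oligodendrocytes (10.7%) and microglia (12.6%), and 3 of 4 in newly formed oligodendrocytes (15.2%). Both cocaine libraries were above both saline libraries for 7 of 7 members in inhibitory neurons (15.1%), 6 of 6 in astrocytes (13.2%) and in endothelial cells (15.7%), 5 of 6 in precursors (13.6%), 4 of 6 in mature oligodendrocytes (15.6%), 3 of 6 in microglia (12.4%) and 3 of 4 in newly formed oligodendrocytes (18.7%). The ratios below 1 were those of Chchd10 in mature oligodendrocytes (0.678) and microglia (0.615), from 10 and 9 saline UMIs. The highest ratios, of Ccdc85b in newly formed oligodendrocytes (8.45) and Amn in inhibitory neurons (7.65), rested on 4 saline UMIs each. That of Chchd10 in precursors (3.33) rested on 6. Of 12 inhibitory clusters, 3 gave a ratio for Cck, Atxn7l3b, Arhgdig and Fbxo2, 2 for Ccdc85b and Chchd10, and 0 for Amn and Npw. The ratio was 1.23 to 2.24 for Arhgdig, 1.31 to 1.67 for Fbxo2 and 1.69 to 2.37 for Chchd10. It was 1.83 to 10.9 for Cck, 2.16 to 2.47 for Atxn7l3b and 3.85 to 5.57 for Ccdc85b. The 10.9 of Cck, in inhibitory cluster 2, rested on 4 saline UMIs. Median ratios of the classes were between 1.87 and 2.43. In endothelial cells of libraries 9 to 12, Cck was at 5.97% to 9.02% of its excitatory level and Arhgdig at 7.12% to 13.3%. Chchd10 was at 6.63% to 20.5%, Fbxo2 at 14.1% to 22.3% and the neuronal gene Snap25 at 6.58% to 9.34%. Atxn7l3b was at 60.2% to 85.0% and Ccdc85b at 163% to 241%. The part of neuronal transcripts in the ratios and counts of non-neuronal classes was not tested.

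In other classes than excitatory neurons, edgeR called 0 members at 48 h over 7 classes and 0 at maintenance over the 4 classes that could be compared, with 0 members at an unadjusted p under 0.05 in each (131 to 549 and 171 to 448 of all genes in a class). Of all genes, edgeR called 0.0199% in endothelial cells and 0.0338% in precursors at 48 h, 0.038% in microglia at maintenance and 0.0% in the rest. These fits include the libraries of 15 days. Without them the members that passed the filter fell from 30 to 18 tests at 48 h and from 17 to 12 at maintenance, still with 0 called. In edgeR 1, Cck in astrocytes at 48 h, had an unadjusted p under 0.05 (log2 change 3.75 ± 1.43, adjusted p = 0.998). It passed the filter there only through cocaine library 8, at 79.5 CPM against an early median of 9.99 CPM. Early astrocyte Snap25 was also highest in that library (304 CPM). The direction of this test was thus fixed beforehand, and its p-value is not counted. Library 3 held fewer than 10 astrocytes, precursors and newly formed oligodendrocytes, so these had 1 saline library at maintenance and were not compared there.

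Against P21, 24 tests of members were made over the 7 other classes, of which 16 were of members that reached the filter on low counts in the saline P60 libraries alone. Of these 16, 9 were called, all lower at P60. Atxn7l3b was called in 5 classes, with log2 changes from -1.57 ± 0.31 (SE) in endothelial cells (adjusted p = 0.00943, 13.3% of genes called lower) to -3.06 ± 0.30 in microglia (adjusted p = 1.46e-05, 29.4%). Inhibitory neurons (7.0%), precursors (24.8%) and mature oligodendrocytes (12.9%) were the other classes. The P21 cells labelled as precursors went against that label by their markers, as given below. Their call is therefore not read as a difference of precursors between ages. Arhgdig (-2.28, adjusted p = 0.000234) was called in inhibitory neurons, Fbxo2 (-1.41, adjusted p = 0.000163) in astrocytes (18.7%), and Cck in endothelial cells (-4.97, adjusted p = 0.0228) and microglia (-3.82, adjusted p = 0.00565). In newly formed oligodendrocytes (3.95%) Atxn7l3b was not called (adjusted p = 0.0554). These fits were not repeated without P21 library 1. For Cck that library was at 5.65 times the mean of P21 libraries 2 and 3 in endothelial cells and 4.27 times in microglia. For Atxn7l3b it was at 2.32 and 1.45 times in the same classes.

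The other 8 tests were of members that passed the filter only with the P21 libraries, where they were high, so that their direction was fixed beforehand and the 5 calls among them are not counted. They were those of Atxn7l3b in astrocytes, Amn in inhibitory neurons, Arhgdig in microglia and precursors and Cck in precursors. Amn in inhibitory neurons gave 6 UMIs in the saline P60 libraries together and 224 UMIs at P21. In precursors Cck gave 3 UMIs and 954 UMIs, and Arhgdig 2 and 37 UMIs.

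Markers of other cells differed between the ages in several of these classes, beside the calls of each member there, Atxn7l3b included. Cells labelled as precursors at P21 had 758 and 780 CPM of excitatory markers and 152 and 452 CPM of the precursor markers Pdgfra, Cspg4 and C1ql1, so that the label goes against their markers, whereas the earlier P60 libraries had 6.97 to 56.2 and 1137 to 1702 CPM. In these P21 cells Cck was at 4257 CPM in library 1 and 1338 CPM in library 2, beside 4728 and 1648 CPM in excitatory neurons, and library 3 had fewer than 10 of them.

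Microglia at P21 had 2307 to 6781 CPM of the microglial markers C1qa, Csf1r and Cx3cr1, against 15872 to 21124 CPM in the earlier P60 libraries. Their excitatory markers were at 298 to 596 CPM at P21 and 10.0 to 117 CPM earlier, their endothelial markers at 415 to 846 CPM and 8.08 to 50.1 CPM, and their markers of mature oligodendrocytes at 335 to 867 CPM and 0 to 59.4 CPM. Astrocytes at P21 had 3042 to 3419 CPM of the astrocyte markers Gja1, Aqp4 and Slc1a3, against 5029 to 6194 CPM earlier. Their markers of mature oligodendrocytes were at 838 to 1617 CPM at P21 and 11.3 to 56.8 CPM earlier, their excitatory markers at 180 to 399 CPM and 13.1 to 69.6 CPM, and their endothelial markers at 316 to 365 CPM and 1.99 to 14.3 CPM. In endothelial cells the excitatory markers were at 68.2 to 181 CPM at P21 and 5.71 to 44.5 CPM earlier. The part of these markers in the calls was not tested.

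Genes whose level followed that of Cck most closely were sought over the 11 libraries that the choice did not use, among 6059 genes of at least 20 CPM, by Pearson's r of log2(CPM + 1) in excitatory neurons, as a description over libraries that also differ in depth and age. They were Snf8 (r = 0.99), 2410004B18Rik (0.99), Gfra4 (0.98), Tmem191c (0.98) and Cyc1 (0.98). Leaving out P21 libraries 1 and 2, the pair farthest from the median of Cck, r was 0.94 to 0.96 for these 5 genes. Snf8 was at 25.0 to 46.0 CPM in the 8 earlier libraries and at 178, 79.8 and 72.5 CPM at P21. At 15 days, which the ranking did not use, it was at 153 and 141 CPM in libraries 9 and 10 and at 34.5 and 80.6 CPM in libraries 11 and 12, the same order as Cck. Of the members, Arhgdig ranked 32nd, Atxn7l3b 71st, Ccdc85b 277th, Chchd10 498th and Fbxo2 970th in likeness to Cck, and Amn and Npw were below the minimum level. For the members r was lower without P21 libraries 1 and 2, at 0.85 against 0.97 for Arhgdig, 0.81 against 0.95 for Atxn7l3b and 0.61 against 0.86 for Ccdc85b. For Chchd10 it was 0.32 against 0.77, for Fbxo2 0.36 against 0.67 and for Amn 0.55 against 0.86.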

How the data were processed

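UMIs were counted by the authors with Cell Ranger after alignment to mm9 (NCBIM37), and the deposited matrices hold these raw UMI counts. A table deposited by the authors gives the class, the cluster and the mitochondrial fraction of each retained cell, obtained with Seurat. Per the study's methods, cells with very many detected genes were removed by the authors as likely doublets, and no doublet caller was run here. A strand setting is not given in the sources used here. Counts of the cells of 1 class were added within each library that held at least 10 of them, leaving out 13 mitochondrial and 143 ribosomal protein genes. Tests were the quasi-likelihood tests of edgeR 4.0.16 (R 4.3.3) after filterByExpr and TMM scaling, with robust fits. The SE printed with an edgeR change was derived as the absolute log2 change over the square root of the F statistic. A call needed a Benjamini-Hochberg adjusted p under 0.05 over all tested genes and a change past 1.5-fold. P60 contrasts came from 12 libraries with 6 group means, so that the libraries of 15 days share in their spread, and the age contrast from 4 saline and 3 P21 libraries, without the saline libraries of 15 days. Ratios needed more than 3 UMIs in the saline libraries. CPM and shares were computed with python 3.11.15, and the tests were tried on simulated data. Members, lists and tests were chosen with earlier results of these data known. Named besides the members were list genes called in excitatory neurons, Tpst2 at 15 days by its size of change, and the 5 genes most like Cck; Cckbr was added after its values were seen. Alternatives were DESeq2 1.42.0, its size factors in edgeR, no filter, no fold threshold, and mitochondrial and ribosomal genes kept. Others were cells thinned to 2000 UMIs, other sets of libraries, and P21 libraries 2 and 3 summed. A minimum of 30 cells in the other classes, and each library left out in excitatory neurons, were also tried. The other classes were also fitted without the libraries of 15 days, an alternative chosen after seeing the data.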

Additional observations from a re-analysis of the deposited data

How the results depend on the processing

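Of the alternatives, leaving out saline library 12 moved the 15-day ratios furthest. Leaving out 1 library at a time, the ratio in excitatory neurons ranged from 2.04 to 7.49 for Cck and 2.27 to 4.57 for Ccdc85b. It ranged from 2.50 to 5.75 for Npw, 2.80 to 8.13 for Amn and 1.77 to 2.98 for Atxn7l3b. For Arhgdig it was 1.53 to 2.105, for Chchd10 1.66 to 2.61 and for Fbxo2 1.72 to 4.31. The highest values were those without library 12 and the lowest those without library 11. The number of members called at 48 h of saline against maintenance was 2 without the filter on low counts, in which 73 of all genes were called. Without the libraries of 15 days, edgeR called 2 genes at maintenance, 1 at 48 h and 4 for the difference of both effects in excitatory neurons (0 in each with them), and over the other classes 11 genes at maintenance and 14 at 48 h (2 and 4 with them), with 0 members in each. Against P21, leaving out 1 library at a time in excitatory neurons gave log2 changes of -1.96 to 0.27 for Chchd10 and -0.63 to 0.34 for Fbxo2. The positive values were those without P21 library 1. The call of Cck was lost with thinned cells (adjusted p = 0.0506) and without P21 library 2 or 1 of the saline libraries 2, 5 and 7, and its adjusted p ranged from 0.00246 to 0.0774 over all alternatives; those of Atxn7l3b and Arhgdig were kept in each. With a minimum of 30 cells, 10 calls of members against P21 were made in other classes (14 with the minimum of 10, 5 of them of members that passed the filter only with the P21 libraries), where newly formed oligodendrocytes and precursors had too few libraries left and were not run. That minimum was also not run for newly formed oligodendrocytes at 48 h and inhibitory neurons at maintenance, and with it Amn in inhibitory neurons was no longer called against P21. DESeq2 gave no adjusted p for Ccdc85b and Chchd10 against P21. No paired analysis was possible because the replicate numbers follow the order of accessions and mark no shared animal or batch. Each P60 group has 2 libraries, so a spread like that between libraries 11 and 12 limits what can be detected, and Amn and Npw rest on too few UMIs in most libraries for their ratios to be precise.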
